A study of Mus musculus with 2 samples.

Results

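The SOX genes encode transcription factors, and 10 of them were described here in organoids grown from mouse pituitary: Sox2, Sox21, Sox4, Sox11, Sox12, Sox6, Sox13, Sox9, Sox7 and Sox15. They were taken by gene name, as SOX factors of pituitary stem cells and epithelia, from 20647 genes with a value. The study compared 1 RNA-seq library of cystic organoids with 1 library of dense organoids. The cystic organoids were at passage 2 and came from a GHCre/iDTR male, and the dense organoids were at passage 4 and came from a -/iDTR male. Both mice were 10 weeks old, both carried the iDTR allele, and both cultures grew in PitOM medium. As background, iDTR is a diphtheria toxin receptor allele that Cre switches on, and GHCre is a Cre used for growth hormone cells, so of the 2 libraries the cystic one alone carried a Cre. The labels name no toxin treatment. Organoid type, passage, genotype and mouse differ together between the libraries and cannot be told apart. There were no replicates, so no test between conditions was possible, and every interval below covers counting error only.

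SOX proteins bind DNA through a high mobility group (HMG) box related to that of SRY, and they are sorted into groups, SOXB1 to SOXG among these genes, by the similarity of that box. They usually act with partner factors and bend the DNA they bind. In the pituitary, SOX2 marks the stem and progenitor cells that line the cleft and lie scattered through the anterior lobe, and SOX9 is found in part of these cells. Several other SOX factors are better known from skin, hair, blood vessels, cartilage, nerve and muscle.

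All 10 SOX genes had reads in at least 1 library, 8 of them in both. All 10 passed the expression filter, a mean of at least 50 normalized counts over the 2 libraries. The genes were chosen with earlier results of these data known. Of the 20 genes of the SOX family only these 10 passed the filter, so their passing it is not a result. A 4-fold difference was passed on the dense side by Sox15, Sox21 and Sox7 and on the cystic side by Sox11. The remaining 6 differed by less than 4-fold. Over all 11279 genes past the filter, 7.65% passed 4-fold on the dense side and 7.86% on the cystic side. At a 2-fold threshold, 6 SOX genes lay on the dense and 1 on the cystic side, beside 15.6% and 15.7% of all genes. The median log2 ratio of cystic over dense, with 1 added to each normalized count, was -1.34 for the 10 SOX genes and -0.033 for all genes past the filter. The SOX genes thus lay on both sides, with more of them on the dense side.

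**Figure D1:**
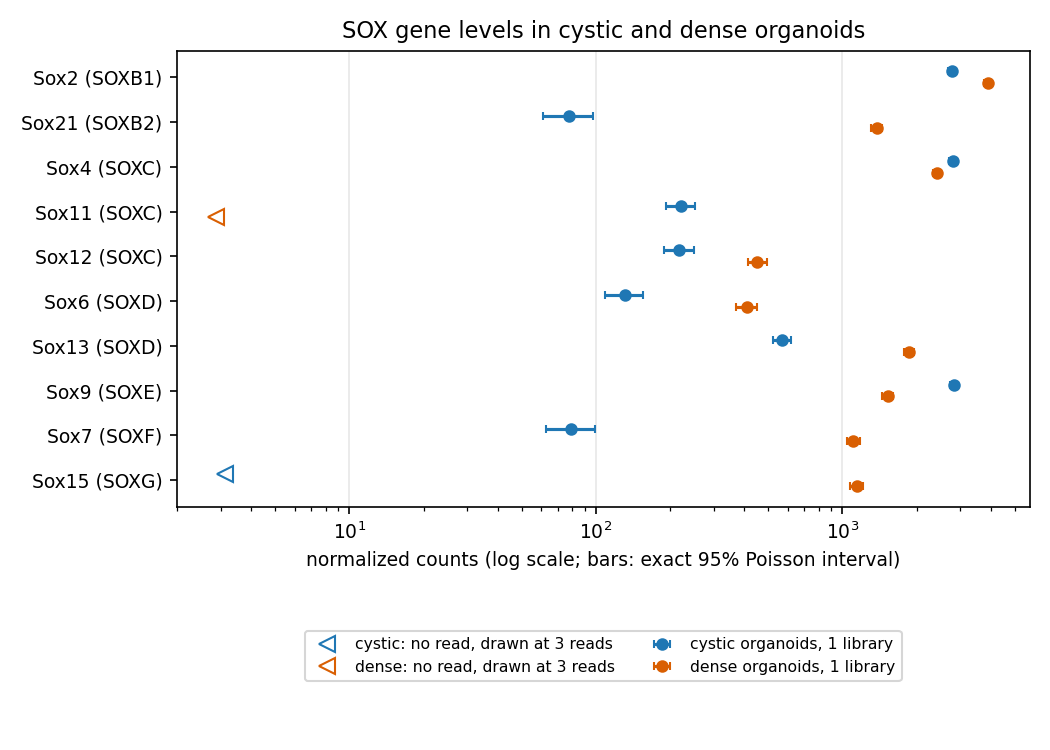
Normalized counts (log scale) of the 10 SOX genes in the cystic and the dense library, with exact 95% Poisson intervals; open triangles mark a library with no read, drawn at the value of 3 reads. Sox2, Sox4 and Sox9 are above 1500 normalized counts in both libraries, Sox21 and Sox7 sit far to the left in the cystic library, and Sox15 and Sox11 each have no read in 1 library.

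**Figure D2:**
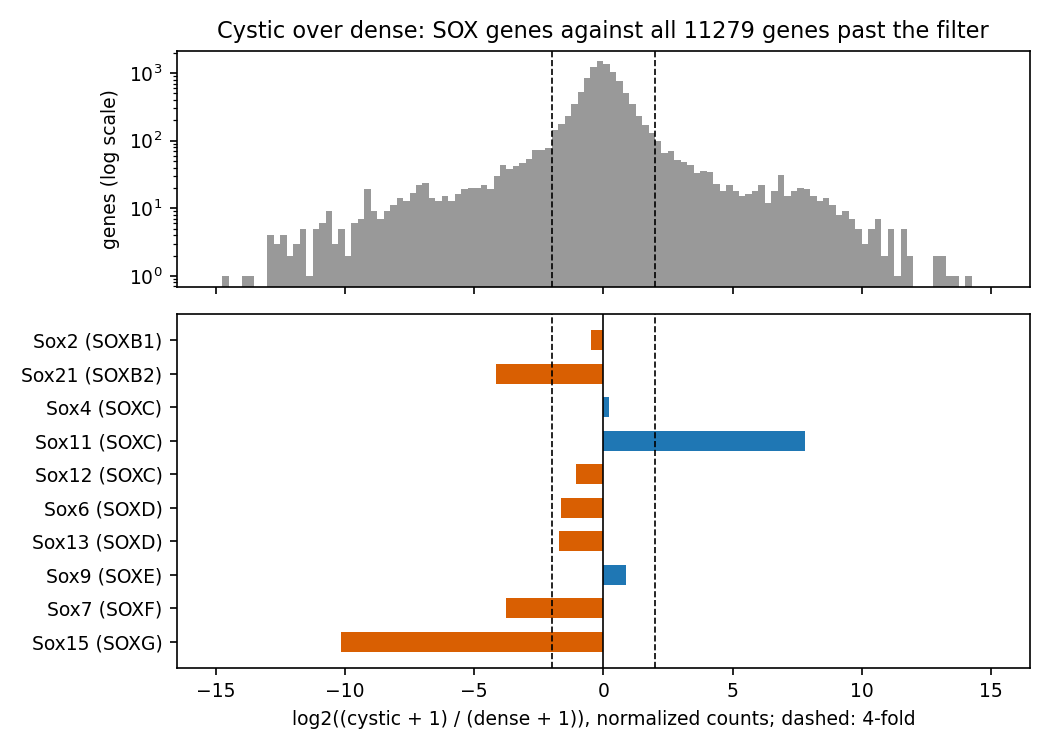
Histogram of the log2 ratio of cystic over dense for 11279 genes (top, log scale of gene numbers) and the same ratio for each SOX gene (bottom), with dashed lines at a 4-fold difference. Sox15 at -10.16, Sox21 at -4.14 and Sox7 at -3.79 lie beyond the line on the dense side, and Sox11 at 7.79 lies beyond it on the cystic side, where Sox15 and Sox11 would be at -8.51 and 6.27 with the library at 0 put at 3 reads.

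Sox15, the lone member of the SOXG group and a gene with known roles in mouse muscle regeneration and trophoblast, was found in dense organoids only, as far as these 2 libraries show. Sox15 (ENSMUSG00000041287) was covered by 0 cystic and 1194 dense reads, or 0 and 1141 normalized counts. A count of 0 allows up to 3 reads, which is 3.14 normalized counts in the cystic library, so Sox15 was at least 364-fold higher in dense organoids. Of the genes past the filter, 1.17% had no read in the cystic library, and 0.443% had a ratio at least as far toward dense as that of Sox15. The annotated exons of Sox15 share 31 bases with the neighbouring gene Mpdu1 on the opposite strand. Mpdu1 itself was at 1219 (cystic) and 1412 (dense) normalized counts.

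Sox11, a SOXC gene of developing neurons and other progenitors, showed the opposite pattern. Sox11 (ENSMUSG00000063632) was covered by 211 cystic and 0 dense reads, or 221 normalized counts (95% Poisson interval 192 to 253) and 0. Against the dense floor of 2.87 normalized counts, set at 3 reads, Sox11 was at least 76.98-fold higher in cystic organoids. The exact 95% Poisson limit at 0 reads is 3.53 normalized counts in the dense library. No read in the dense library was seen for 1.29% of the genes past the filter, and 1.18% had a ratio at least as far toward cystic as Sox11.

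The sequence before the transcription start is shown for Sox15 and Sox21, both higher in dense organoids, for Sox11, seen in cystic organoids, and for Sox2, present in both. These are the 250 bases before the RefSeq start (build GRCm38.p6), written 5′ to 3′ on the gene's strand, with each CG dinucleotide in capitals.
Sox15 (chr11:69654787-69655036, plus strand): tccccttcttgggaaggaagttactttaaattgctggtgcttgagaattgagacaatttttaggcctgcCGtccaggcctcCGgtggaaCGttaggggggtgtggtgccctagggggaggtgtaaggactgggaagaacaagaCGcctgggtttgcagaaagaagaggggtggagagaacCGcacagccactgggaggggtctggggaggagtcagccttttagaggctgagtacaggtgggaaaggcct
Sox21 (chr14:118237031-118237280, minus strand): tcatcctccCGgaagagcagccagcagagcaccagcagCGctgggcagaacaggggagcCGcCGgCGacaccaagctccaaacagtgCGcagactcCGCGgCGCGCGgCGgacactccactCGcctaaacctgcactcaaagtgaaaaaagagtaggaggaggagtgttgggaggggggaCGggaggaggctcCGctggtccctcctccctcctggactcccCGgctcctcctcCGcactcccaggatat
Sox11 (chr12:27342719-27342968, minus strand): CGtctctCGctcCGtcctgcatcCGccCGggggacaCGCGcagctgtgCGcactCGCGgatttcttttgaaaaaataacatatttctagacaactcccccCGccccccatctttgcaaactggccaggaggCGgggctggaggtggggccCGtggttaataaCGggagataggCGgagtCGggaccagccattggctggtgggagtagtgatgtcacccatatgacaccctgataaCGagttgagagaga
Sox2 (chr3:34649745-34649994, plus strand): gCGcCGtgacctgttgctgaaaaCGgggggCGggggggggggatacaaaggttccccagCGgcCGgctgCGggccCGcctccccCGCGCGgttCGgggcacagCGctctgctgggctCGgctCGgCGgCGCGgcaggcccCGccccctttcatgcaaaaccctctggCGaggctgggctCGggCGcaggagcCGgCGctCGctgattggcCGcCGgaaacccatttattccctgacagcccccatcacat

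Among the 4 windows shown, capitals are sparsest in that of Sox15 and densest in that of Sox2. The Sox15 window held 5 CG dinucleotides, close to the median of 6 over 32851 RefSeq promoter windows of the same length. Sox21 and Sox11 each held 17, and Sox2 held 27. Sox12, with 35, and Sox13, with 31, held more still, and Sox4 held 11. RefSeq windows were at hand for 8 of the 10 genes, of which Sox6 had 6 windows and the other 7 genes 1 window each. The Sox6 windows held 1 to 10, and 4 of them held fewer than that of Sox15. ACAAT, a form of the core letters of a SOX binding site, was searched on both strands, and other forms of the core were not searched. It occurred in 27.7% of all windows, in that of Sox15 among the 7 genes with 1 window (first base 198 bases before the start), and in 3 of the 6 Sox6 windows. Such a match is a string of letters and not a measured binding site. Promoter windows for Sox9 and Sox7 were not analysed here.

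Sox2 was the most highly expressed SOX gene per length in both libraries. Sox2 (ENSMUSG00000074637), the SOXB1 stem cell factor, was covered by 2667 cystic and 4064 dense reads. Per kilobase (kb) of merged annotated exon this was a level of 1356 normalized counts per kb in cystic (95% Poisson interval 1305 to 1409) and 1889 in dense organoids (1831 to 1947). These levels lay at percentile 97.2 and 97.9 of all genes with an annotated length. Sox2 was 1.39-fold higher in the dense library, a gap passed in the same direction by 28.8% of the genes past the filter. Sox2 lies within an intron of Sox2ot, a noncoding gene on the same strand. Sox2ot had 51 reads in cystic and 34 in dense organoids, which was 1.88% (exact binomial interval 1.40% to 2.46%) and 0.830% (0.575% to 1.16%) of the summed reads of Sox2 and Sox2ot.

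Sox21 was much lower than Sox2 per length in cystic organoids, at 20.4 against 1356 normalized counts per kb, and nearer to it in dense organoids, at 363 against 1889. Sox21 (ENSMUSG00000061517), the SOXB2 gene of hair and tooth epithelium in the mouse, encodes a repressor that can bind the same sites as SOXB1 factors. It was covered by 74 cystic and 1444 dense reads, or 77.4 (60.8 to 97.2) and 1380.3 normalized counts (1310.0 to 1453). Sox21 was 17.8-fold higher in dense organoids (95% counting interval 14.1 to 22.8). Shares of reads are not corrected for gene length and are compared here between libraries. Of the summed Sox2 and Sox21 reads, Sox21 took 2.70% (2.13% to 3.38%) in cystic and 26.2% (25.1% to 27.4%) in dense organoids. The exons of Sox21 share 713 bases with the noncoding gene Gm4675 on the opposite strand, which had 20 and 36 reads. Whether the counting used strand is not given in the sources used here, so reads of such pairs may not be separated.

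Sox9 and Sox2 were in a different balance in the 2 libraries. Sox9 (ENSMUSG00000000567), the SOXE factor of cartilage, testis and several epithelial stem cells, was covered by 2717 cystic and 1598 dense reads. Its cystic value was 1.86-fold that of dense organoids (1.75 to 1.98), and 17.3% of the genes past the filter lay at least as far in that direction. Sox2 took 49.5% of the summed Sox2 and Sox9 reads in cystic (48.2% to 50.9%) and 71.8% in dense organoids (70.6% to 72.9%). This share is taken within each library and needs no scaling between them. The noncoding gene 2610035D17Rik, listed here as a neighbour of Sox9, was at 112 (cystic) and 210.3 (dense) normalized counts. It thus lay higher in the library in which Sox9 was lower.

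The 3 SOXC genes did not differ alike. Sox4 (ENSMUSG00000076431), which supports the survival and maturation of progenitors in many tissues, was at 2806 normalized counts in the cystic (2701 to 2914) and 2414 in the dense library (2320.3 to 2510). It was 1.16-fold higher in cystic organoids (1.10 to 1.23), the smallest difference among the 10 genes. Sox12 (ENSMUSG00000051817), the remaining SOXC gene, had 218 and 452 normalized counts and was 2.08-fold higher in dense organoids (1.76 to 2.46). Sox11 was seen only in the cystic library, as given above. Sox4 took most SOXC reads in both, 86.5% in cystic (85.2% to 87.7%) and 84.2% in dense organoids (82.9% to 85.5%). Summed over the 3 genes, SOXC had 3101 reads in cystic and 2998 reads in dense organoids. The exons of Sox4 share 2616 bases with Gm26735, a noncoding gene on the opposite strand that was not analysed here.

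Both SOXD genes were about 3-fold higher in dense organoids. SOXD proteins lack an activation domain of their own and pair through a coiled coil. Sox13 (ENSMUSG00000070643) was at 571 normalized counts in the cystic (524 to 621) and 1866 in the dense library (1784 to 1951), a 3.27-fold difference (2.97 to 3.60). Sox6 (ENSMUSG00000051910), known from cartilage, muscle and red blood cells, had 131 (109 to 156) and 409 (371 to 449.8), a 3.13-fold difference (2.56 to 3.85). Neither reached 4-fold. Sox6 held 18.6% of the summed Sox6 and Sox13 reads in cystic (15.8% to 21.8%) and 17.98% in dense organoids (16.5% to 19.6%), and these intervals overlap.

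Sox7, a SOXF gene best known from blood vessels and early endoderm, was higher in dense organoids. Sox7 (ENSMUSG00000063060) was covered by 76 cystic and 1160 dense reads, or 79.5 (62.6 to 99.5) and 1109 normalized counts (1046 to 1175). The dense value was greater by 13.9-fold (11.1 to 17.8), and 4.02% of the genes past the filter lay at least as far toward dense. Genes of endothelium mostly had few reads. Of 12 SOXF target and endothelial genes, 8 had a row and 1 passed the filter. That 1 gene differed by less than 4-fold, and 15.5% of all genes past the filter passed 4-fold. The values of the 8 genes summed to 97.3 (cystic) and 206 (dense) normalized counts. Most of it was Egfl7, a secreted protein gene of vessels, with 61.7 and 189 (3.07-fold, 2.28 to 4.17). Pecam1, the endothelial adhesion gene CD31, had 1 read in cystic and 5 in dense organoids, and Kdr, the VEGF receptor gene, had 21 and 0 reads. Tie1, also of this list, had 1 read in cystic and 11 in dense organoids.

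Compared per kb of exon, the order of the SOX genes differed between the libraries. In cystic organoids Sox2 was followed by Sox9 at 687 (662 to 714), Sox4 at 585 (563 to 608), Sox13 at 132 and Sox12 at 48.9 normalized counts per kb. Sox11 at 26.6 (23.1 to 30.4), Sox7 at 24.1 (19.0 to 30.2) and Sox21 at 20.4 (16.0 to 25.6) came next with overlapping intervals, and Sox6 at 8.82 was the lowest with reads. In dense organoids Sox2 was followed by Sox15 at 1326 (1251 to 1403), then Sox4 at 503 (484 to 523) and Sox13 at 433 (414 to 452). Sox9 at 369 (352 to 388), Sox21 at 363 (345 to 383) and Sox7 at 336 (317 to 356) had overlapping intervals there, ahead of Sox12 at 102 and Sox6 at 27.6. The Sox15 level in dense organoids lay at percentile 96.6 of all genes. With coding length in place of merged exon length, Sox15 stood in place 4 in dense organoids, after Sox2, Sox4 and Sox21, since its annotated exons (861 bases) hold little beyond the coding part (693 bases). Coding length also put Sox13 in place 5 and Sox9 in place 6 in dense organoids. In cystic organoids it put Sox4 in place 2 and Sox9 in place 3, and Sox21 ahead of Sox7. The order below Sox2 thus depended on the length used.

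**Figure D3:**
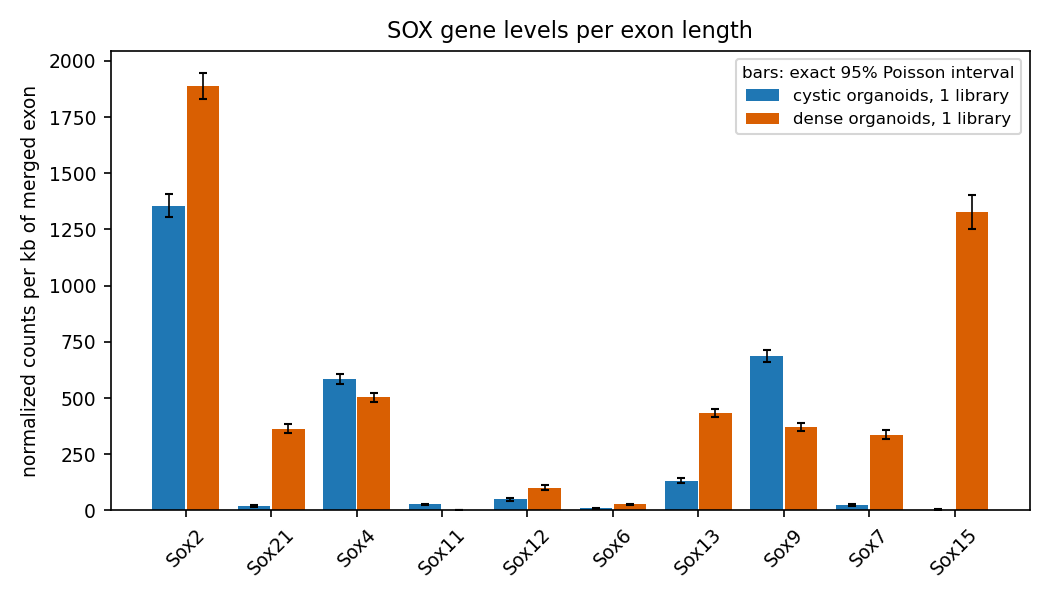
Normalized counts per kb of merged exon for each SOX gene in the cystic and the dense library, with exact 95% Poisson intervals as error bars. Sox2 has the tallest bar of either colour, and Sox15 at 1326 in dense organoids has no bar in cystic organoids.

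In sum over the 10 genes there were 9306 cystic and 14838 dense reads, which is 0.0540% and 0.0770% of each library. The summed normalized counts of dense organoids were 1.46-fold those of cystic organoids (1.42 to 1.495). Sox2, Sox9 and Sox4 together took 86.7% of these reads in cystic (86.0% to 87.4%) and 55.2% in dense organoids (54.4% to 56.0%). Sox15, Sox7 and Sox21, which took 0%, 0.817% and 0.795% in cystic organoids, took 8.05%, 7.82% and 9.73% in dense organoids. Of the 10 genes, 5 (Sox2, Sox4, Sox11, Sox12 and Sox21) are annotated with a single coding exon. These held 1 of the 3 genes past 4-fold on the dense side and the 1 gene past 4-fold on the cystic side.

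Most other HMG-box genes differed little between the libraries. Of 22 such genes outside the SOX family, 18 passed the filter and 0 differed 4-fold, beside 15.5% of all genes past the filter. The median log2 ratio of the 18 was -0.26. At any size of difference, 15 of these 18 were on the dense side, beside 5845 of all 11279 genes past the filter. The widest ratios were those of Tcf7, a WNT pathway factor, 2.44-fold higher in dense organoids (2.06 to 2.90), and Hbp1, a repressor of proliferation genes, 2.27-fold higher (2.13 to 2.43). The highest mean normalized counts, not corrected for length, were those of the chromatin genes Ssrp1, at 3617 (cystic) and 5606 (dense) normalized counts, and Pbrm1, with 3018 and 3351. Lef1, another WNT pathway factor that was chosen after its values were seen, had 4 reads in cystic and 99 in dense organoids. It was 22.6-fold higher in dense organoids (8.56 to 84.6) but stayed just under the filter.

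Among SOX partner and cofactor genes, 3 of the 18 past the filter differed 4-fold in either direction, near the 15.5% of all genes past the filter that did so. Trp63, the master factor of basal epithelium, was at 60.7 (cystic) and 16344 (dense) normalized counts (269-fold, 208 to 355). Pou3f1, a POU factor of skin and Schwann cells, had 3.14 and 386 (123-fold, 41.8 to 599). Pax6, an eye and early pituitary factor that acts with SOX2 in the lens, had 421 and 33.5 and was 12.6-fold higher in cystic organoids (8.89 to 18.3). Ctnnb1, the gene of beta-catenin, had 11799 and 11685, and the corepressor gene Tle4 was 2.02-fold higher in cystic organoids (1.79 to 2.27). The list had a median log2 ratio of 0.041.

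Genes linked to SOX factors in other tissues differed gene by gene. Of 11 SOXB1 target genes, 8 had a row and passed the filter. Of these, Notch1 (18.9-fold, 16.0 to 22.5) and Sox21 itself passed 4-fold on the dense side and 0 on the cystic side (list median 0.23). Jag1, a NOTCH ligand gene, lay 2.85-fold toward dense (2.67 to 3.05), and Ccnd1, the cyclin D1 gene, 2.38-fold higher in cystic organoids (2.29 to 2.47). Of the SOXC list, 3 of 8 genes passed the filter with a median of 0.69. Tubb3, the neuronal tubulin gene, had 2 reads in cystic and 172 in dense organoids (78.6-fold, 21.4 to 654), Stmn1, a microtubule regulator gene, was 1.77-fold (1.60 to 1.96) and Tead4, a Hippo pathway factor gene, 1.62-fold (1.13 to 2.35) higher in cystic organoids. Tubb3 was higher in the library without Sox11 reads, Stmn1 and Tead4 in the library with them, and a link to Sox11 was not tested. Of 15 SOXE genes, 4 passed the filter, with a median of 2.19 that lay between members at opposite ends. Lgr5, a WNT-linked stem cell receptor gene, had 404 reads in cystic and 1 in dense organoids, and Col9a2, a cartilage collagen gene, had 120 and 1. The basement membrane gene Col4a2 had 4 and 651 reads, and Sox6 was the fourth.

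**Figure D4:**
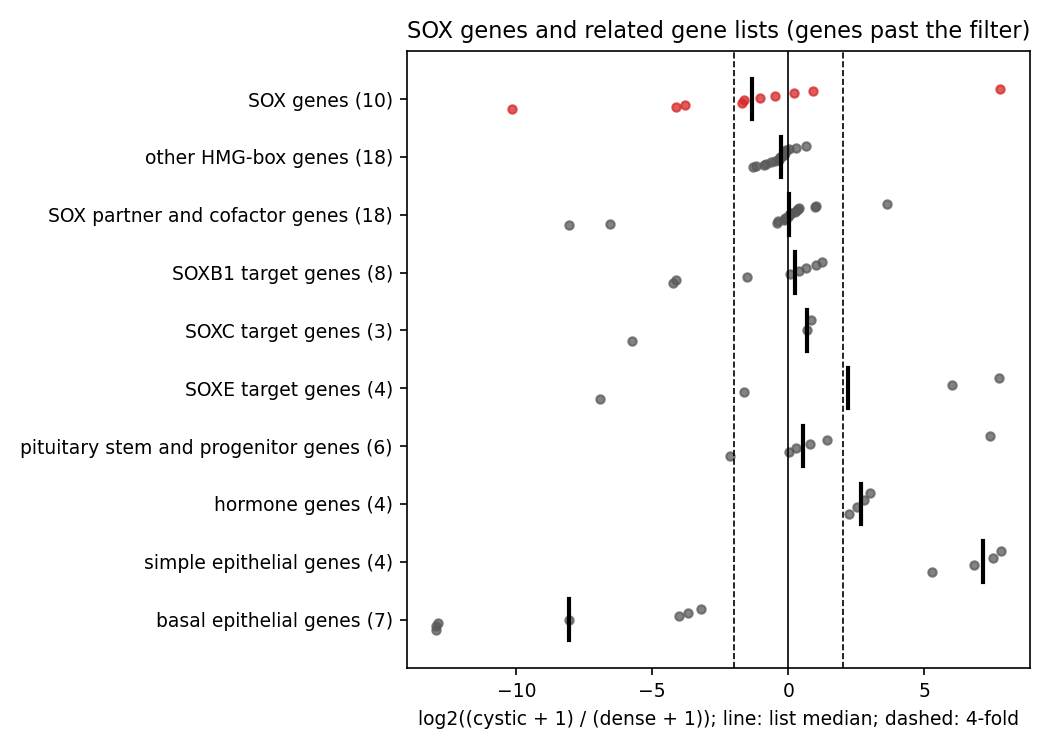
Log2 ratio of cystic over dense for each gene past the filter in the SOX genes and 9 other gene lists, 1 point per gene, with a line at each list's median and dashed lines at a 4-fold difference. The SOX genes spread from -10.16 (Sox15) to 7.79 (Sox11), both set by the added 1 against 0 reads, the other HMG-box genes stay inside the 4-fold lines, and the basal and simple epithelial genes lie apart on opposite sides.

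Markers of epithelial type also differed between the 2 libraries. Of 7 basal epithelial genes, 7 passed 4-fold on the dense side, and their values summed to 2847 (cystic) and 383792 (dense) normalized counts. Krt14 and Krt5, the basal keratins, had 20 and 16 reads in cystic against 183235 and 146174 in dense organoids, and Col17a1, a hemidesmosome collagen gene, had 2 and 24620 reads. Of 4 simple epithelial keratin genes, 4 passed 4-fold on the cystic side, with summed levels of 69201 and 1081. They ranged from Krt18 (39.2-fold, 36.7 to 41.9) to Krt8 (232-fold, 187 to 291), with Krt19 at 187-fold (136 to 265) and Krt7 at 116-fold (93.7 to 146). The part of these marker differences in the differences of Sox15, Sox21, Sox7 and Sox11 was not tested. In bulk RNA, fewer cells of a type and less RNA per cell cannot be told apart.

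Markers of pituitary origin were present in both libraries, though not all of them. Of 11 stem and progenitor genes, 8 had a row and 6 passed the filter, with summed levels of 63106 (cystic) and 45996 (dense) normalized counts and a median log2 ratio of 0.53. Epcam, an epithelial adhesion gene, had 28114 and 10446 normalized counts, and Cdh1, the E-cadherin gene, had 21553 and 21080. Pitx1, a homeobox gene, was at 1276 and 5614, past 4-fold on the dense side. Lhx3, a factor of pituitary commitment, had 164 reads in cystic and 0 in dense organoids (at least 59.8-fold). Of 7 hormone genes, 4 passed the filter and all 4 passed 4-fold on the cystic side (summed levels 3978 and 703, median 2.66). They were Gh, at 1603 and 276, Prl, Pomc and Cga.

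Markers of other cell types varied in level. Of 6 pituicyte genes of the posterior lobe, 3 had a row and 1, the collagen gene Col25a1, passed the filter, with 125 reads in cystic and 1 in dense organoids (summed levels 142 and 4.78). The glial gene Gfap had 4 reads in each. Of 10 neural crest, glial and melanocyte genes, 6 had a row, 3 passed the filter and 0 differed 4-fold (summed levels 3241 and 3475, median -0.39). They were Erbb3 (2065 and 2708), Mbp (1119 and 666) and Pmel (29.3 and 86.0), of which Erbb3 is also a gene of many epithelia. All 7 mesenchymal genes had a row and 0 passed the filter, with summed levels of 115 and 14.3. Most of the cystic sum was the collagen gene Col3a1, with 67 reads in cystic and 1 in dense organoids. Of 6 immune genes, 5 had a row and 0 passed the filter (53.4 and 2.87). Most of that cystic sum was Aif1, with 45 reads in cystic and 0 in dense organoids.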

How the data were processed

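Per the labels' protocols, RNA from both organoid cultures was amplified with Smart-seq v4, which copies full-length transcripts by PCR, and made into libraries with an NEBNext Ultra DNA kit. The authors deposited 1 table with a normalized read signal per gene for 1 cystic and 1 dense library. TopHat, DESeq 1.32.0 and the mm9 build are named in the submitters' processing notes, without their roles. Neither the read counter nor the annotation is stated.

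Each column held whole multiples of its smallest value, for 100% of values within 0.001 read, so reads were recovered. The size factors were 0.956 (cystic) and 1.05 (dense), and the depths 17247431 and 19258313 reads. Of 20649 rows, 2 ERCC spike-in rows (0 and 2 reads) were left out. With 1 library per group no count model was fitted. Log2 ratios used a pseudocount of 1, a mean of at least 50 and a 4-fold threshold. Intervals are exact Poisson, Clopper-Pearson for folds and exact binomial for shares, at 95%. PCR reads are not independent molecules. A count of 0 was set to 3 reads for lower bounds, which leave out counting error of the other library.

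Exon lengths, overlaps and exon numbers came from GENCODE M21, matched by Ensembl identifier for 99.7% of genes. It is of another build than mm9, and the authors' lengths may differ. The 10 genes, 17 gene lists and thresholds were chosen with earlier results of these data known. Named were all SOX genes and, per list, up to 4 genes past the filter with the widest ratios and the 2 with the highest mean. Exceptions are Lef1, named as such, and marker or overlapping genes given by their reads (Pecam1, Kdr, Tie1, Gfap, Col3a1, Aif1). Some genes that this rule covers are left unreported. The code for calls and intervals was run on simulated Poisson counts, which hold no spread between cultures or from PCR. Scalings used edgeR 4.0.16 in R 4.3.3. Python 3.11.15 with scipy 1.17.1 was used for the rest.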

Additional observations from a re-analysis of the deposited data

How the results depend on the processing

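Without replicates, none of the 4-fold calls could be checked against the spread between cultures, and leaving out a library was not possible. No paired analysis was possible because each group had 1 library. Scaling by total, upper quartile or trimmed mean of M-values moved the ratio of any of the 10 SOX genes by at most 0.029 (log2), and no ratio changed sign under another pseudocount or scaling. The size of some ratios did depend on the pseudocount: with 10 and 50 in place of 1, that of Sox15 went from -10.16 to -6.85 and -4.57 and that of Sox11 from 7.79 to 4.53 and 2.44. With 50, Sox21 was at -3.49, Sox7 at -3.16 and Sox6 at -1.34, against -4.14, -3.79 and -1.64. Depth limits Sox15 in cystic and Sox11 in dense organoids, where 0 reads were set to 3.

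Of the SOX counts, the cystic one (Sox11) was 0 with a mean of at least 200 and the dense one was 6 at 2-fold. Requiring the whole counting interval beyond 4-fold, chosen after the data were seen, gave 1 and 3 as before. All genes numbered 2681 higher in cystic and 1939 higher in dense organoids with no filter, 1767 and 1761 at 2-fold, and 561 in cystic with a mean of at least 200, against 886 and 863.

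In the other lists, small counts of genes at least 4-fold higher moved by over 1.5 times as follows. With no filter, the cystic counts were 2 for other HMG-box, partner, SOXF, pituicyte, stem and mesenchymal genes and 1 for SOXC, neural crest and immune genes, and the dense counts were 1 for other HMG-box, 2 for SOXE and 1 for SOXF genes. At 2-fold, the cystic counts were 2 for partner, SOXB1 and stem genes, and the dense counts were 2 for other HMG-box, 2 for SOXE, 1 for SOXF and 1 for neural crest genes. With a mean of at least 200, the cystic counts were 1 for SOXE, 0 for pituicyte and 0 for stem genes, and the dense counts were 1 for partner and 0 for SOXC genes. At 8-fold, the cystic count of hormone genes and the dense count of stem genes were 0. A pseudocount of 50 left 1 SOXE and 0 pituicyte genes in cystic organoids. The causes were not tested beyond each setting's own construction. Other lengths kept Sox2 in place 1 in both libraries.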

Other observations

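A further 2 SOX genes had a few reads. Sox5, the SOXD partner of Sox6 in cartilage, and Sox30, a SOXH gene of male germ cells, each had 7 reads in the cystic library, or 7.32 normalized counts (95% Poisson interval 2.94 to 15.1). Neither had a read in the dense library, a bound of at least 2.55-fold for each, and both stayed below the filter. The remaining 8 of the 20 genes of the mouse SOX family were not analysed here. Among noncoding genes named after SOX genes, Sox6os, which lies within Sox6 on the opposite strand without shared exon bases, had 1 read in cystic and 6 in dense organoids (5.48-fold, 0.665 to 252). Sox2ot was 1.64-fold higher in cystic organoids (1.04 to 2.61), whereas Sox2 was higher in dense organoids.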
